A study of Homo sapiens with 12 samples.

Results

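Microtubules are hollow polymers of paired alpha- and beta-tubulin, and the human genome encodes each of these proteins in several isotypes from separate genes. Described here are 10 of those genes, 4 for alpha-tubulin (TUBA1A, TUBA1B, TUBA1C and TUBA4A) and 6 for beta-tubulin (TUBB, TUBB2A, TUBB2B, TUBB3, TUBB4A and TUBB6), chosen by name from the 59653 gene symbols of the deposited count table. All 10 were in the table and all 10 passed the filter on low counts. RNA sequencing was done on 12 libraries of human neurons grown from reprogrammed (induced pluripotent) stem cells made from IMR-90, a fibroblast line. In the 6 control libraries (siNC) the cells had received a negative control siRNA, and in the other 6 (siZCC) an siRNA against ZCCHC17, a zinc knuckle protein that binds RNA. All libraries came from the one line, and NPC, which also stands in the titles, is not explained there. The labels do not say whether the replicates were separate cultures, so p-values measure only the spread between these libraries, which may be technical.

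Tubulin is among the most abundant proteins of a growing neuron, where microtubules carry cargo along the axon and hold its shape. TUBA1A and TUBB2B are known as the main isotypes of developing neurons, TUBB3 as a marker of neurons, TUBB and TUBA1B as isotypes of nearly all cells, and TUBB6 as one found mostly outside the brain. Tubulin mRNA is also controlled by tubulin itself: when free tubulin is in excess, the factor TTC5 recognises the first residues of the nascent chain at the ribosome and the mRNA is degraded. The isotypes differ most at their carboxy-terminal ends, which carry most of the modifications that tune binding of motors and other proteins.

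The start of each coding sequence, which encodes the residues read by TTC5, is shown because it is the stretch that autoregulation acts through. The lines give the first 24 bases of the GENCODE v29 coding sequence, 5′ to 3′, with the first 12 in capitals. TUBA1B and TUBA1C have the same 24 bases as TUBA1A, and TUBB6 the same as TUBB3.
TUBA1A: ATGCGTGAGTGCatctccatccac
TUBA4A: ATGCGTGAATGCatctcagtccac
TUBB: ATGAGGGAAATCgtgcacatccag
TUBB2A: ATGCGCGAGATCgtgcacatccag
TUBB2B: ATGCGTGAGATCgtgcacatccag
TUBB3: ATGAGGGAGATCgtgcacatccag
TUBB4A: ATGCGGGAGATCgtgcacctgcag

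The last 60 bases of the beta-tubulin coding sequences, stop codon included, are shown because they separate the isotypes and also show how little separates TUBB2A from TUBB2B. Capitals mark bases that differ from, or have no partner in, the pairwise alignment with TUBB.
TUBB: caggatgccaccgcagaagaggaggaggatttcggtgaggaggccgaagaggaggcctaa
TUBB2A: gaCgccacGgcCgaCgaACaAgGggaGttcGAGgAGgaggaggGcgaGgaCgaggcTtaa
TUBB2B: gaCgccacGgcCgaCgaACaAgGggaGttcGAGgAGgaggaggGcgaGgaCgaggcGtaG
TUBB3: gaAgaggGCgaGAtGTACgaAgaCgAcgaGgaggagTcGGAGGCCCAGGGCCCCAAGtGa
TUBB6: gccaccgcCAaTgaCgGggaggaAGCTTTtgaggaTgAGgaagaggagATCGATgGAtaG
TUBB3 differed from TUBB in 34 of its last 60 bases, more than any other beta-tubulin shown.

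Over whole coding sequences, TUBB2A and TUBB2B were 98.1% identical, with a longest identical run of 725 bases. TUBA1B and TUBA1C were 97.3% identical, with a longest run of 326 bases, and TUBA1A and TUBA1B 97.2% identical, with 221 bases. Such stretches are longer than common read lengths, and how the authors' counting treated reads that map to several places is not given in the sources used here. Of all 100-base windows of the main transcript of each gene, 54.4% of those of TUBB2A, 42.4% of TUBB2B, 32.1% of TUBA1B and 22.3% of TUBA1A also occurred in a transcript of another tubulin gene. For TUBA1C this share was 11.5%. Counts of these near-identical genes are therefore uncertain. With any gene on either strand the share for TUBA1B was 71.1%, mostly through AC011603.2, which overlaps it on the opposite strand and held 3 to 18 counts per library. For TUBB6, 0 of 1965 windows of the main transcript occurred in any other gene, although 20.3% of its annotated exon length overlaps AFG3L2 on the opposite strand.

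**Figure D1:**
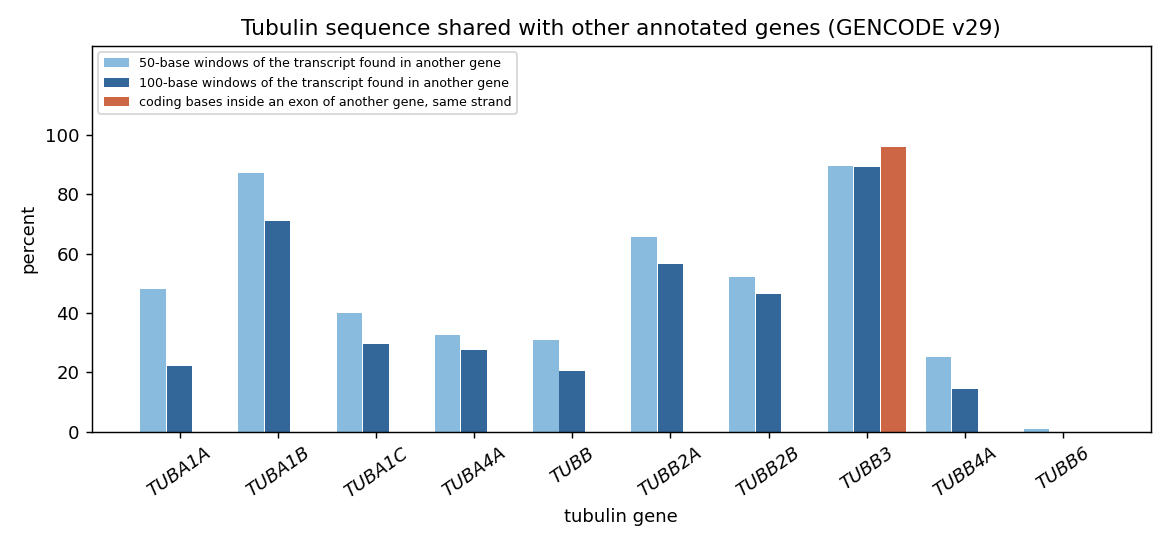
Share (percent, y axis) of the main transcript's 50-base and 100-base windows that occur in a transcript of any other annotated gene (blue bars), and share of coding bases that lie in a same-strand exon of another gene (orange bars), for each of the 10 tubulin genes. TUBB3 is alone in having coding bases (95.8%) inside another gene's exons on the same strand. TUBB6 shares almost no windows of its main transcript. Overlap of exons on the opposite strand is not drawn.

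Each siNC library held 90755953 to 120023356 counts, and each siZCC library 76115083 to 105389055. The target transcript, ZCCHC17, stood between 53.99 and 61.0 CPM (counts per 1000000 counts of the scaled library) in siNC and between 9.37 and 10.6 CPM in siZCC. Markers of several cell types were present. The 14 neuron markers summed to 4309 to 4842 CPM in siNC and 3877 to 4457 CPM in siZCC, the 8 progenitor markers to 5751 to 6132 and 5802 to 6327 CPM, the 12 proliferation markers to 822 to 932 and 624 to 729.7 CPM, and the 8 astrocyte markers to 1640.1 to 1865 and 1702 to 2024 CPM. The 6 microglia markers summed to at most 2.25 CPM in any library, and the oligodendrocyte gene SOX10 and the pluripotency gene LIN28A did not pass the filter. All 12 proliferation markers fell in siZCC (quasi-likelihood test of edgeR, Benjamini-Hochberg adjusted p under 0.05 over all 24671 genes tested), with a median log2 fold change of -0.45; CCNB1, which drives entry into mitosis, fell by 0.61 (SE 0.0410). Of the progenitor markers 3 rose and 1 fell, of the astrocyte markers 3 rose and 1 fell, of 5 oligodendrocyte markers tested 1 fell, of 2 microglia markers tested 0 changed and of 2 pluripotency markers tested 1 rose. In bulk RNA, fewer cells of a type and less RNA per cell cannot be told apart.

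The 10 tubulin genes together took 0.702% ± 0.0337 of all siNC counts and 0.684% ± 0.0345 of all siZCC counts (SD, n = 6 each). Their levels in siNC, as CPM per kilobase of annotated exon, spanned a wide range. TUBA1A led with 976 ± 56.1 (SD, n = 6), followed by TUBB with 429 ± 11.8 and TUBB2B with 348 ± 25.3 CPM per kilobase. TUBA1B stood at 240.3 ± 15.4 and TUBB2A at 196 ± 26.8 CPM per kilobase, and the libraries of these neighbours overlapped. Lower down came TUBB4A at 30.2 ± 2.27, TUBB6 at 17.5 ± 0.993, TUBA1C at 7.38 ± 0.269, TUBB3 at 3.21 ± 0.142 and TUBA4A at 1.28 ± 0.185 CPM per kilobase. No other neighbours in this order overlapped in siNC. The order depends in part on the length used: per kilobase of the main transcript, TUBA1B (528) stood above TUBB2B (378).

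Of the 10 genes, 3 differed between siZCC and siNC, 2 higher (TUBA4A and TUBB2B) and 1 lower (TUBB6), against 22.2% of all genes tested, 11.4% higher and 10.8% lower. A count of 3 in 10 is near that background. The groups did not overlap in 1 of the 10, TUBB6, against 9.74% of all genes tested. The median log2 fold change of the 10 was -0.02, and that of all genes tested -0.0016. Of the 4 genes with the highest levels per kilobase, TUBB2B passed the test, and TUBA1A, TUBB and TUBA1B, which differed by at most 0.09 on the log2 scale, did not.

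**Figure D2:**
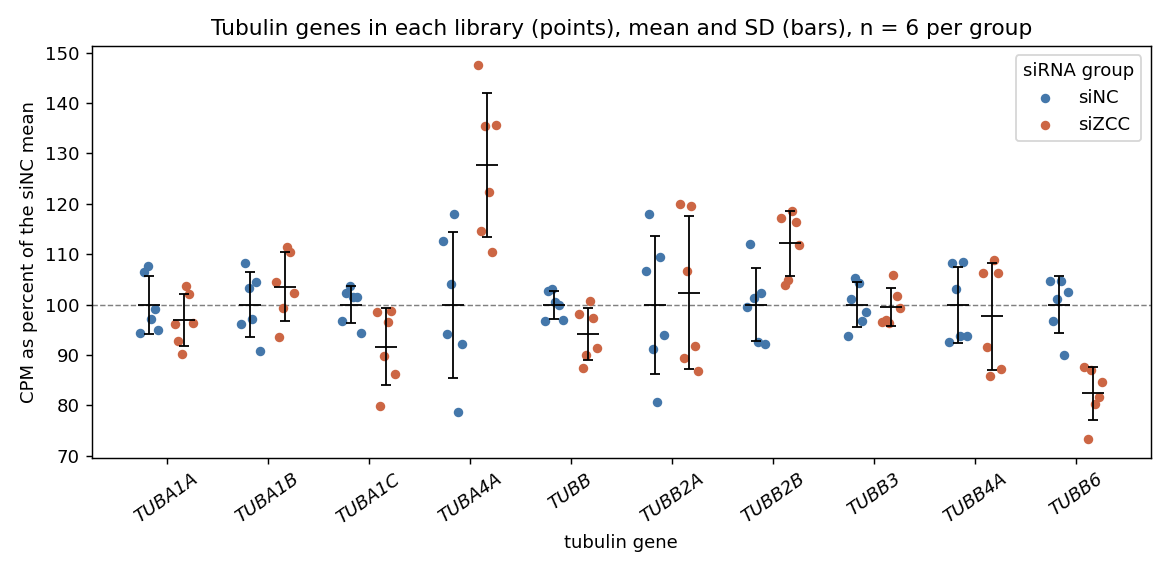
CPM of each tubulin gene in each library as a percent of that gene's siNC mean (y axis), siNC in blue and siZCC in orange, with the mean and SD of 6 libraries per group as bars. All 6 siZCC libraries lie below all 6 siNC libraries for TUBB6, whereas TUBA1A, TUBB2A, TUBB3 and TUBB4A overlap broadly.

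Among the alpha-tubulins, TUBA1A, whose mutations cause cortical malformations, ranged in siNC from 3155 to 3595 CPM with a median of 3280.2, and in siZCC from 3016 to 3465 CPM with a median of 3217. The groups overlapped over most of this range. Its log2 fold change was -0.05 (SE 0.0405, 95% interval -0.13 to 0.04, edgeR adjusted p 0.471), so a fall of more than 0.13 lies outside the interval. TUBA1B, the alpha-tubulin of most dividing cells, ranged from 780.4 to 929 CPM in siNC (median 861) and from 803 to 957 CPM in siZCC (median 889). Its log2 fold change was 0.05 (SE 0.0463, 95% interval -0.05 to 0.15, edgeR adjusted p 0.480), and 2 of 6 siZCC libraries lay above all siNC libraries.

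TUBA1C, a further gene of the same cluster on chromosome 12 (GENCODE v29 on GRCh38, 49188736 to 49274603, plus strand), ranged from 32.2 to 35.4 CPM in siNC (median 34.7) and from 27.3 to 33.7 CPM in siZCC (median 31.8). Here 3 of 6 siZCC libraries lay below all siNC libraries, and all 6 below the siNC mean. The log2 fold change of -0.13 (SE 0.0478, 95% interval -0.23 to -0.03) had an edgeR adjusted p of 0.0656 and so missed the threshold. TUBA1A lies at 49184796 to 49189324 and TUBA1B at 49127782 to 49131397 on the minus strand of the same chromosome, and annotated exons of TUBA1A and TUBA1C overlap on opposite strands over 490 bases.

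TUBA4A was the one alpha-tubulin that passed the test. It encodes an alpha-tubulin whose mutations are linked to motor neuron disease and whose end, unlike that of the others, carries no encoded tyrosine. It lies on chromosome 2 (GRCh38, 219249711 to 219278170, minus strand). It was also the least abundant of the 10, at 4.10 to 6.15 CPM in siNC (median 5.16) and 5.76 to 7.69 CPM in siZCC (median 6.71), from 474 to 666 counts per siZCC library. All 6 siZCC libraries lay above the siNC mean and 4 above every siNC library. TUBA4A rose by 0.36 on the log2 scale (SE 0.0932, 95% interval 0.16 to 0.55, edgeR adjusted p 0.0114), to 128% of the control level. Exons of STK16, a kinase gene, and of TUBA4B overlap 739 bases of TUBA4A on the opposite strand (18.1% of its exon length). STK16 was the more abundant, with a siNC mean of 33.5 ± 1.81 CPM and a siZCC mean of 37.0 ± 1.97 CPM (SD, n = 6 each), and rose by 0.14 (SE 0.0415, edgeR adjusted p 0.0213). The strand setting of the counting is not given, and the part of STK16 reads in the TUBA4A count was not tested.

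Among the beta-tubulins, TUBB6 changed the most. It encodes the class V isotype and lies on chromosome 18 (GRCh38, 12307669 to 12344320, plus strand). In siNC it ranged from 64.98 to 75.6 CPM (median 73.5) and in siZCC from 52.9 to 63.2 CPM (median 60.0). All 6 siZCC libraries lay below all 6 siNC libraries. TUBB6 fell by 0.28 on the log2 scale (SE 0.0451, 95% interval -0.37 to -0.18, edgeR adjusted p 3.47e-04), to 82.4% of the control level. Exons of AFG3L2, a mitochondrial protease gene, overlap 837 bases of TUBB6 on the opposite strand, and AFG3L2 did not pass the test (-0.05, SE 0.0263, edgeR adjusted p 0.207). TUBB4B, a widely expressed beta-tubulin outside the 10, also fell, from 221 ± 6.21 to 199 ± 14.9 CPM (SD, n = 6 each), by 0.15 (SE 0.0425, edgeR adjusted p 0.0162). The groups overlapped for TUBB4B, although 5 of its siZCC values lay under the whole control range. The proliferation markers, which moved in the same direction, summed to 822 to 932 CPM in siNC and 624 to 729.7 CPM in siZCC without overlap. Of the 7 mesenchymal markers 3 fell and 1 rose, with a summed level of 355 to 633 CPM in siNC and 281 to 451 CPM in siZCC. PDGFRB, a growth factor receptor of pericytes and fibroblasts, rose by 0.42 (SE 0.0498, edgeR adjusted p 2.25e-05), and ACTA2, smooth muscle actin, fell by 0.57 (SE 0.0821, edgeR adjusted p 1.23e-04), both without overlap of the groups. The part of either marker list in the change of TUBB6 or TUBB4B was not tested.

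TUBB2B and TUBB2A are a tandem pair on chromosome 6 (GRCh38, 3224261 to 3231730 and 3153669 to 3157526, both minus strand). TUBB2B, in which mutations cause polymicrogyria, ranged from 703.5 to 854 CPM in siNC (median 766) and from 793 to 904 CPM in siZCC (median 870.1). All 6 siZCC libraries lay above the siNC mean and 3 above every siNC library, so the groups overlapped. TUBB2B rose by 0.17 on the log2 scale (SE 0.0463, 95% interval 0.07 to 0.26, edgeR adjusted p 0.0164), to 112% of the control level. PSMG4, a proteasome assembly gene whose exons overlap 174 bases of TUBB2B on the opposite strand, went the other way, with a fall of 0.13 (SE 0.0339, edgeR adjusted p 0.0123).

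TUBB2A was the most variable of the abundant genes. It ranged from 273 to 398 CPM in siNC (median 339) and from 293 to 405 CPM in siZCC (median 335), a coefficient of variation of 13.7% and 14.8%. Its log2 fold change was 0.03 (SE 0.0936, 95% interval -0.16 to 0.23, edgeR adjusted p 0.842). The interval holds the value of TUBB2B, and the log2 ratio of TUBB2A to TUBB2B counts did not differ between the groups beyond their spread (-0.13, exact permutation test, two-sided, p = 0.177, adjusted 0.207). A rise of one gene of the pair and not of the other was therefore not shown.

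TUBB, the most abundant beta-tubulin and a constituent of nearly all cells, ranged from 1394 to 1487 CPM in siNC (median 1444) and from 1261 to 1451 CPM in siZCC (median 1359). Of the siZCC libraries, 3 lay below all siNC libraries and 5 below the siNC mean. The log2 fold change was -0.09 (SE 0.0346, 95% interval -0.16 to -0.01), with an edgeR adjusted p of 0.0824. TUBB4A, a brain isotype prominent in oligodendrocytes and neurons, ranged from 97.1 to 113.6 CPM in siNC (median 103) and from 89.8 to 113.9 CPM in siZCC (median 104). Its siZCC libraries lay on both sides of the control range, 3 below and 1 above it. The log2 fold change was -0.03 (SE 0.0634, 95% interval -0.17 to 0.10, edgeR adjusted p 0.749).

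**Figure D3:**
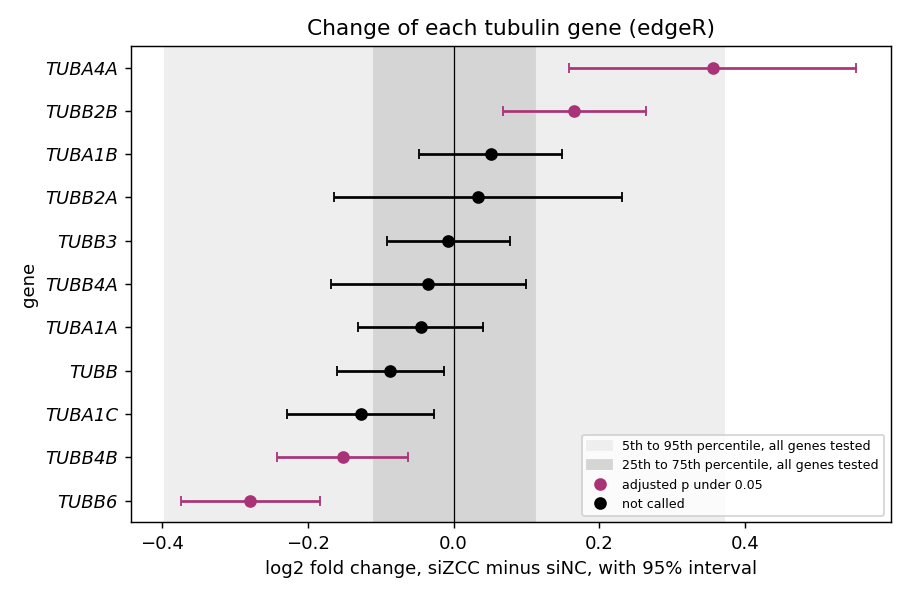
Log2 fold change of siZCC against siNC (x axis) with its 95% interval for the 10 tubulin genes and TUBB4B, in purple where the adjusted p was under 0.05. Grey bands span the 25th to 75th and the 5th to 95th percentile of all 24671 genes tested; most tubulins lie within or near the inner band, and TUBB6 and TUBA4A lie farthest from 0.

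TUBB3, the beta-tubulin most used as a neuron marker, was counted at a level far below the other neuronal isotypes. It ranged from 13.4 to 15.0 CPM in siNC (median 14.2) and from 13.7 to 15.1 CPM in siZCC (median 14.0), or 1130 to 1774 counts per library, against 108664 to 176013 counts for TUBB. Of the 14 neuron markers, MAP2, a dendritic microtubule-binding protein, and DCX, a microtubule-binding protein of young neurons, stood highest in the same libraries. In siNC they were at 1027 ± 104 and 649 ± 41.8 CPM (SD, n = 6 each). The lowest in siNC were RBFOX3 at 1.27 ± 0.148 CPM, below TUBB3, and ELAVL4 at 21.8 ± 1.20 CPM (SD, n = 6 each). In GENCODE v29 on GRCh38, TUBB3 spans bases 89921392 to 89938761 of chromosome 16 (plus strand), and 95.8% of its coding bases also lie within exons of AC092143.1, a gene on the same strand whose transcript joins TUBB3 to the neighbouring MC1R. Of the 100-base windows of the TUBB3 transcript, 89.0% occur in that of AC092143.1. AC092143.1 is a row of the deposited table, where it holds 0 to 5 counts per library. The counting tool named in the submitters' processing notes can leave out reads that fall in exons of more than one gene, but the setting used is not given, and its part in the low TUBB3 count was not tested.

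TUBB3 did not pass the test between the groups. Its log2 fold change was -0.01 (-0.0076, SE 0.0400, 95% interval -0.09 to 0.08, edgeR adjusted p 0.920), and the siZCC libraries lay within the siNC range except for 1 above it. Several other neuron markers moved: of the 14, 7 fell and 1 rose, with a median log2 fold change of -0.15. DCX fell by 0.23 (SE 0.0480) without overlap of the groups, and NSG1, a neuronal endosome protein, by 0.26 (SE 0.0519), with edgeR adjusted p of 0.00252 and 0.00200. MAP2 had a log2 fold change of 0.0081 (SE 0.0555).

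Ratios of counts within a library need no scaling between libraries and test whether 2 tubulins changed unequally. For 7 pairs, the exact permutation test over the 924 assignments of libraries (two-sided, smallest possible p 0.00216) was adjusted over the pairs. The log2 ratio of TUBA1B to TUBA1C was 4.65 ± 0.0552 in siNC and 4.83 ± 0.0605 in siZCC (SD, n = 6 each), higher by 0.18 without overlap (exact p = 0.00216, adjusted 0.00758). The log2 ratio of TUBB3 to TUBB6 rose from -2.34 ± 0.0956 to -2.07 ± 0.117, by 0.27 and also without overlap (exact p = 0.00216, adjusted 0.00758). TUBA1A fell against TUBA1B by 0.10 (exact p = 0.0108, adjusted 0.0253) and against TUBA4A by 0.40 (exact p = 0.0152, adjusted 0.0265), in both cases with overlap. TUBB3 rose against TUBB by 0.08 (exact p = 0.0260, adjusted 0.0364), a call lost in 6 of 12 tests on fewer libraries, namely when siNC replicate 1, 2 or 5 was dropped, or siZCC replicate 2, 3 or 6. TUBB4A did not differ from TUBB in this sense (0.05, exact p = 0.351, adjusted 0.351). A ratio shows unequal change of the pair and not which of the 2 changed. TUBA1A, TUBA1B and TUBA1C are near-identical in coding sequence, and the part of shared reads in their ratios was not tested.

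Set as shares of the summed counts per kilobase, the alpha members were mostly TUBA1A, at 79.7% ± 0.585 in siNC and 78.6% ± 0.520 in siZCC (SD, n = 6 each), with TUBA1B at 19.6% ± 0.585 and 20.7% ± 0.486. Among the beta members, TUBB took 42.0% ± 1.95 in siNC and 38.8% ± 0.758 in siZCC. The share of TUBB2B was 33.1 to 34.9% in siNC and 36.3 to 39.1% in siZCC, with no overlap of the groups. The share of TUBB6 averaged 1.72% in siNC and 1.39% in siZCC, with slight overlap. Alpha members summed to 1.20 ± 0.0499 times the beta members in siNC and 1.16 ± 0.0520 times in siZCC, with wide overlap. This ratio and the shares are per kilobase of annotated exon and depend on the length used. In siNC, TUBA1A stood at 976 CPM per kilobase of annotated exon and 1770 per kilobase of main transcript, and TUBB at 429 and 540. The shares and the ratio are descriptions with no test, and they rest on counts that near-identical genes may share. The beta values also rest on the TUBB3 count, from which reads shared with AC092143.1 may be missing, which was not tested. TUBB4B, at 105 CPM per kilobase of annotated exon in siNC, is outside the beta members and not in their sum.

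**Figure D4:**
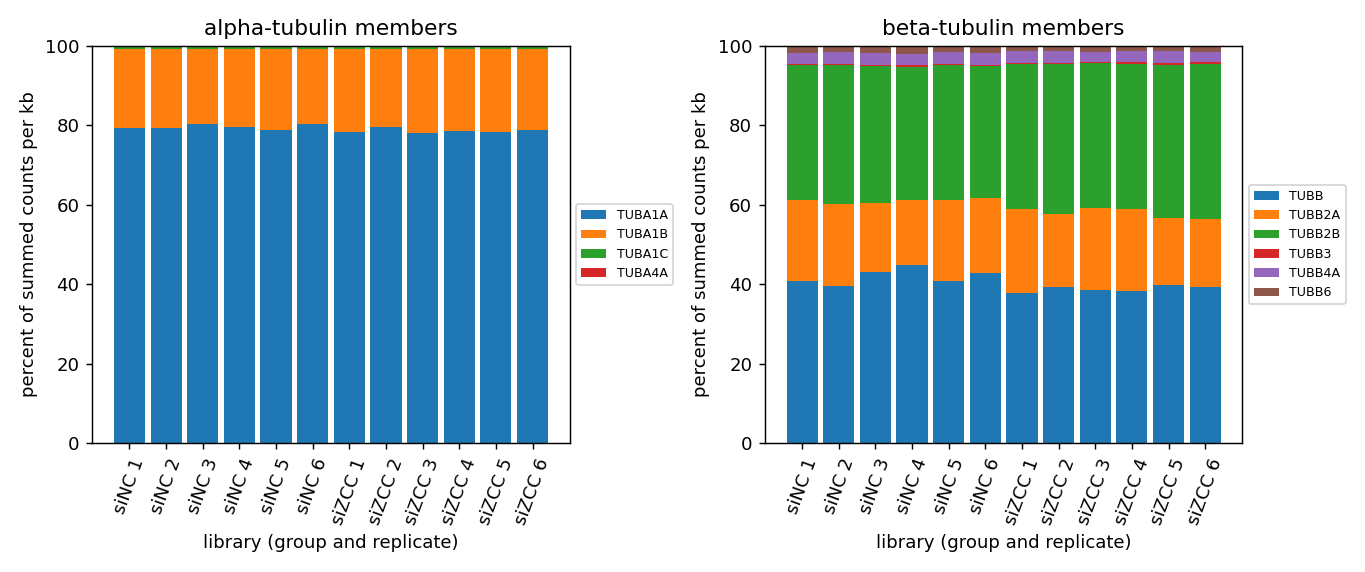
Share of each gene (percent, y axis) in the summed counts per kilobase of the alpha-tubulin genes (left) and the beta-tubulin genes (right), 1 bar per library. TUBA1A makes up 78.1 to 80.4% of the alpha bars, and the TUBB2B part of the beta bars is taller in all 6 siZCC libraries than in the siNC libraries.

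The genes also varied between libraries of one group, and often together. The 12 libraries share the same culture line and scaling, and each group mixes libraries with high and low IL1B counts, as given below. Pairs of other genes were not computed, so the values cannot show a trait particular to tubulins. As a description, deviations from group means had a Pearson r above 0.5 in 21 of the 45 tubulin pairs (median 0.46). The highest was 0.91, between TUBA1C and TUBB, followed by 0.89 between TUBA1B and TUBB2B. TUBA4A and TUBB6, which changed in opposite directions between the groups, deviated together within them (0.82), and TUBA4A and TUBB4A had the lowest value, -0.41. By log2 CPM over all 12 libraries and among the 12624 genes whose mean reached 5 CPM, the genes most like TUBA1A were ELMO2 (Pearson r 0.95), ETFB (0.91), ATP6V0D1 (0.91), GRB2 (0.91) and YY1AP1 (0.90). Those most like TUBB3 were POMT2 (0.87), SLC38A7 (0.81), SUPT5H (0.80), NPIPB5 (0.80) and SUOX (0.80). Among 12624 genes ranked over only 12 libraries, some high values arise by chance, and whether these exceed that was not tested. None of these 10 genes passed the test between siZCC and siNC (edgeR adjusted p 0.218 to 0.906). This was largely set by the choice, since the ranking took in both groups and neither TUBA1A nor TUBB3 passed.

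The libraries also fall into 2 sets by the count of IL1B, an inflammatory cytokine, with 3 libraries of each group at 5.23 to 16.0 CPM and 3 of each at or under 0.09999 CPM. Within the high set and the low set, TUBB6 fell in both (-0.27 and -0.29). TUBA4A was at 0.39 and 0.32 and TUBB2B at 0.20 and 0.12, and neither passed in either set of 3 against 3. TUBA1C was at -0.03 in the high set and fell by 0.23 in the low set, and TUBB was at -0.03 and fell by 0.14. TUBB4A was at 0.07 in the high set and -0.16 in the low set, and passed in neither. The siZCC libraries in which TUBB4A lay below the control range were those of the low set. The difference between the sets, tested as an interaction chosen after seeing the data, did not pass for any of the 10 genes (edgeR adjusted p at least 0.935) or for any of all genes tested, 0 of 24671, with 1177 at an unadjusted p under 0.05, 3 of them among the 10. With the set as a block, TUBA1C (-0.13) and TUBB (-0.09) passed, with edgeR adjusted p of 0.0357 and 0.0345.

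Genes that act on tubulin were then counted from lists that held none of the 10. Among 12 other tubulin genes, 7 passed the filter; 1 rose and 1 fell, with a median log2 fold change of 0.06. TUBG2, a gamma-tubulin that starts new microtubules, rose by 0.15 (SE 0.0363, edgeR adjusted p 0.00811), from 47.3 ± 2.21 to 52.3 ± 2.20 CPM (SD, n = 6 each), and TUBB4B fell as given above. Of 12 genes of the gamma-tubulin ring complex, the template on which microtubules grow, 2 rose and 1 fell, with a median of 0.05. TUBG1 and TUBG2 stand in both lists, so the rise of TUBG2 is counted in each; TUBGCP3, a subunit of the ring, rose by 0.15 (SE 0.0338, edgeR adjusted p 0.00349) without overlap of the groups.

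Folding of new tubulin needs the chaperonin ring, prefoldin and the tubulin cofactors. Of these 20 genes 1 rose, 3 fell and 16 did not pass, with a median of -0.04. CCT5, a chaperonin subunit, fell by 0.09 (SE 0.0253, edgeR adjusted p 0.0209), a call lost with offsets for GC content and length (-0.06, adjusted p 0.0779) and with a replicate block (adjusted p 0.0651). PFDN1, a prefoldin subunit, fell by 0.09 (SE 0.0291, edgeR adjusted p 0.0365), a call lost without the filter on low counts (adjusted p 0.0583) and with a replicate block (adjusted p 0.0917). For PFDN1 the call was lost in 8 of the 12 fits without 1 library. Of the 3 autoregulation genes, CNOT11, which links the process to the deadenylase, fell by 0.09 (SE 0.0307, edgeR adjusted p 0.0428), a call lost in 10 of those 12 fits, with the offsets (adjusted p 0.104), without the filter (0.0807), with limma voom (0.0519) and with a replicate block (0.0872). TTC5, which reads the nascent tubulin chain, had -0.05 (SE 0.0313) and SCAPER, its adaptor, 0.02 (SE 0.0321), and neither passed.

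Enzymes that modify tubulin were counted last. Of 30 genes listed 26 passed the filter; 4 rose, 3 fell and 19 did not pass, with a median of -0.0089. SIRT2, which removes acetyl groups from alpha-tubulin among other proteins, rose by 0.30 (SE 0.0396, edgeR adjusted p 5.62e-05), from 117 ± 6.41 to 144 ± 7.05 CPM (SD, n = 6 each). TTL, the ligase that puts tyrosine back on the end of alpha-tubulin, fell by 0.15 (SE 0.0242, edgeR adjusted p 4.25e-04), from 109.6 ± 1.61 to 99.0 ± 1.95 CPM (SD, n = 6 each). Both groups of libraries were fully separate for SIRT2 and for TTL. In each of these lists the share of genes that passed can be read against the 22.2% of all genes tested, and was 2 of 7, 3 of 12, 4 of 20, 1 of 3 and 7 of 26.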

How the data were processed

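Raw counts by gene symbol, as whole numbers in 1 column per library, were deposited by the authors for 6 siNC and 6 siZCC libraries of total RNA; library totals ran from 76115083 to 120023356. The submitters' processing notes name bcl2fastq 2.17, STAR 2.7.6a, featureCounts 2.0.1 and the build GRCh38; annotation, strand setting and treatment of multi-mapped reads are not given in the sources used here. Groups came from the titles. Counts were analysed with edgeR 4.0.16 in R 4.3.3: filterByExpr kept 24671 genes, sizes were TMM-scaled, and siZCC was set against siNC with glmQLFTest (quasi-likelihood) without covariates, with Benjamini-Hochberg adjustment over all genes kept and a threshold of 0.05. CPM values are TMM-scaled; log2 CPM has a prior count of 2. Exon lengths, positions and sequences came from GENCODE v29 (GRCh38). The biological coefficient of variation was 6.55%. On counts simulated for siZCC against siNC over 24353 genes, 88% of the true changes of 0.5 (log2) were recovered, 66% of those of 0.25 and 18% of those of 0.15. Only 200 genes were changed there, with 144 calls in all, against 5481 calls in the data. The adjusted threshold was therefore stricter in the simulation, and the shares recovered do not carry over to the data. Alternatives were DESeq2 1.42.0 size factors and Wald test, upper quartile scaling, limma 3.58.1 voom, other filters, a replicate block, GC and length offsets, thinning, the IL1B split and leaving out each library. Genes named beside the 10 are the 2 of smallest p in each list, TUBB4B, genes overlapping a member and the 5 most like TUBB3 and TUBA1A. MAP2, RBFOX3, ELAVL4, MC1R, TTC5 and SCAPER were named after their values were seen, and not every marker of smallest p is printed. The members, lists and pairs were chosen with earlier results of these data known. Same-numbered libraries did not deviate together (Pearson r -0.08 to 0.02). Each number joined 1 library of the high IL1B set and 1 of the low set, so these values cannot show whether the numbers pair the libraries. The ends of the alpha-tubulin coding sequences are not reported here.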

Additional observations from a re-analysis of the deposited data

Results flagged for a closer look

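The highest and lowest library of each group were set against the others for 18 quantities (the 10 tubulin genes, the 7 ratios and the library total), or 36 groups of 6, of which 1.8 would stand apart by chance. In 1 of them a library stood apart: siNC replicate 4 held 90755953 counts in all, while the remaining 5 control libraries held 109973707 to 120023356, so that the gap took 0.657 of the whole range. Without it the 3 calls among the tubulins stayed, with TUBB6 at -0.27, TUBB2B at 0.14 and TUBA4A at 0.41.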

How the results depend on the processing

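The same 3 tubulins (TUBA4A, TUBB2B, TUBB6) were called under both other scalings, both other filters, limma voom, the replicate block and the GC and length offsets; DESeq2's Wald test and thinning added TUBA1C, and each fit without 1 library called 3 or 4, with TUBA1C added without siZCC replicate 1 or 5 and TUBB without siZCC replicate 4. The IL1B block called 5. The high IL1B libraries alone called 1 (of 2043 genes in all) and the low ones 3, TUBA1C, TUBB and TUBB6 (of 1602), with 3 libraries per group; the whole-table count of 5481 was otherwise 4484 to 6536. Values near 0 changed sign: TUBB3 to 0.018 with thinning and between -0.024 and 0.0078 without single libraries, TUBB4A to 0.073 in the high set, TUBA1B to -0.012 and TUBB2A to -0.069 in the low set, and TUBB2A between -0.021 and 0.086 without single libraries; the cause was not tested.

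Without single libraries the ratio of TUBB3 to TUBB moved between 0.068 and 0.10, and TUBA1A to TUBA4A between -0.46 and -0.34, its call lost without siNC replicate 5 (adjusted p 0.0530). Permuting within replicate number (replicate block) left the differences at -0.10, 0.18, -0.40, 0.081 and 0.27 for TUBA1A to TUBA1B, TUBA1B to TUBA1C, TUBA1A to TUBA4A, TUBB3 to TUBB and TUBB3 to TUBB6, with adjusted p of 0.0729 to 0.0875; its 64 assignments allow no unadjusted p under 0.03125, and the cause was not tested. The replicate block in edgeR called 4902 genes and ended the calls of CCT5, PFDN1 and CNOT11 among genes named. With 3 libraries per group, TUBA4A, TUBB2B, TUBG2, CCT5, PFDN1 and CNOT11 lost their calls in both IL1B sets, and TUBB4B, TUBGCP3 and DCX in 1 of them.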

Other observations

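The table also has 39 rows of tubulin pseudogenes, of which 32 held at least 1 count. Together they held 1629 to 2575 counts per library, or 0.288 to 0.314% of the counts of the 10 tubulin genes. Of the 7 that passed the filter, 0 were called by edgeR; TUBAP5, the one with the most counts, had 551 to 928 per library and a log2 fold change of -0.03 (SE 0.04996).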
